A study of Mus musculus with 12 samples.

Results

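The cytosolic ribosomal protein genes were examined in the epidermis of control mice and of mice described as lacking the vitamin D receptor (Vdr) and the Mediator subunit Med1 in keratinocytes. The members were the protein-coding mouse genes whose symbol is Rpl or Rps followed by a digit, together with Rplp0, Rplp1, Rplp2 and Rpsa, without the Rps6k kinases and Rps19bp genes, that reached 1 FPKM or more in at least 3 of the 12 libraries. FPKM is a fragment count scaled by transcript length and by the mapped fragments of the library. Of 90 candidate genes by symbol, 85 were members, out of 19477 genes with values in at least 1 of the 2 deposited tables. Members of the large subunit numbered 53 and members of the small subunit 32. Rpl10l, Rpl32l, Rpl3l, Rps23rg1 and Rps27rt stayed below the threshold.

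The cytosolic ribosome translates messenger RNA on a small subunit that decodes and a large subunit that joins amino acids, and each subunit is built from ribosomal RNA and a fixed set of proteins that are made in near-equal amounts. The mRNAs of these proteins begin with a run of pyrimidines, the 5′ terminal oligopyrimidine (TOP) tract, through which mTOR signalling controls their translation, while their synthesis depends on factors such as Myc. In skin, several ribosomal protein genes are known from mutations that alter pigmentation or hair, and free ribosomal proteins of the 5S particle bind Mdm2 and so act on p53.

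RNA of dorsal epidermis of mice on a C57BL/6 background had been sequenced in 12 libraries, 3 per group, at postnatal day 36 (P36) and at 6 months. The Vdr and Med1 alleles were floxed in controls and double knockouts (DKO) alike. Only the DKO had a hemizygous Cre transgene under the K14 promoter. This promoter works in keratinocytes of the basal layer and hence in the cells that arise from them, so other lineages in the sample keep both genes. Per the labels' protocols, epidermis was peeled from heated skin, ribosomal RNA was digested away by RNase H, and single-end reads of 50 bases were produced. Whether the 3 libraries of a group are 3 animals is not in the labels, so the p-values cover the spread among these libraries, and that spread may be technical.

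The read depth is unknown because only FPKM was used. The summed FPKM per library was 446617 to 554382, and 12056 to 12760 genes reached 1 FPKM. Med1 was lower in DKO at P36 (13.8 ± 0.504 FPKM in control and 9.11 ± 1.11 in DKO, SD, n = 3; adjusted p = 0.0083) and differed by a log2 value of -0.26 at 6 months (14.2 ± 2.21 and 11.6 ± 0.256; adjusted p = 0.13). The mean of Vdr was not lower in DKO, at 68 ± 4.16 and 83.5 ± 6.06 FPKM at P36 and 40.5 ± 11.6 and 48.1 ± 5.49 at 6 months (adjusted p = 0.0573 and 0.302), which goes against the label. A gene-level value can also count transcripts that lack only a floxed exon. The names DKO and control therefore stand throughout for the libraries so labelled. The 6-month controls held more RNA of immediate early genes (Fos, Jun and their like), and the 18 genes of that list summed to 7875, 2162 and 2485 FPKM there, against 805 to 1008 in the 6-month DKO and 933 to 1181 at P36.

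The members together took 19 to 20.9% of the summed FPKM in 9 libraries and less in the 6-month controls. Their share of the summed FPKM was 19.5, 19.5 and 20.9% in the P36 controls and 19, 20.4 and 19.2% in the P36 DKO. At 6 months it was 14.2, 14.8 and 16.4% in the controls and 19.6, 20.6 and 19.2% in the DKO. The group means were 19.9 ± 0.825% and 19.5 ± 0.738% at P36, and 15.1 ± 1.15% and 19.8 ± 0.736% at 6 months (SD, n = 3). The 3 control libraries of 6 months lay below all 9 others, and at P36 the genotypes overlapped. In bulk RNA, fewer cells of a type and less RNA per cell cannot be told apart.

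**Figure D1:**
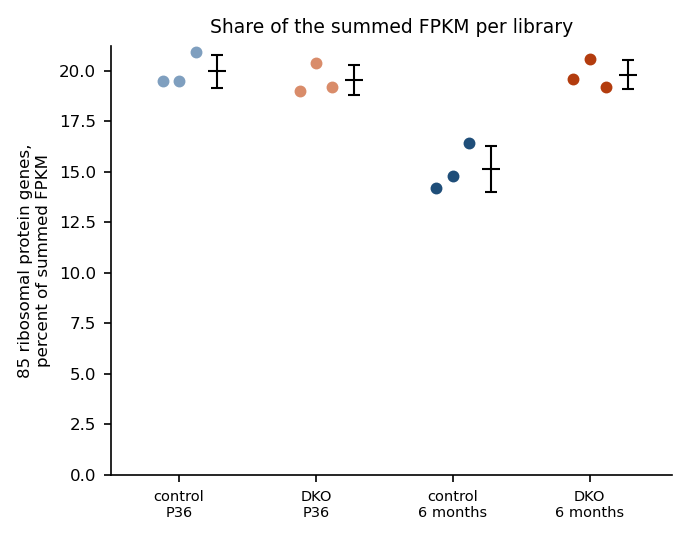
Share of the summed FPKM taken by the 85 members in each library (points, 3 per group), with the group mean and SD beside them (bar). The 6-month controls lie at 14.2 to 16.4%, below the other 9 libraries.

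At P36 a single member, Rpl39l, passed the test between the genotypes. A gene is called here when its adjusted p is under 0.05 in limma's moderated test on log2(FPKM + 1), a scale that understates the change of low genes. Of the 85 members, 1 was called higher in DKO and 0 lower, against 18% of all 12660 genes tested called higher and 5.32% called lower. At an unadjusted p under 0.05 limma gave the same counts of 1 and 0. The median log2 difference was -0.03 over the members and 0.09 over all genes. Among all genes called at P36, 77.1% were higher, a share of 61.3% with median-ratio scaling, 52% with quantile normalization and 60.9% with GC and length bins removed. Libraries of the 2 genotypes overlapped for 79 members, lay wholly above control in DKO for 2 and wholly below for 4, against 30% and 9.63% of all genes.

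The called member was Rpl39l, a paralog of Rpl39 best known from male germ cells and some cancer cells. Its FPKM was 0.8, 1.5 and 1.15 in the P36 controls and 5.47, 5.47 and 3.03 in the P36 DKO. All DKO values lay above all control values, at a level far below that of any other member. The log2 difference was 1.37 ± 0.22 (SE; adjusted p = 0.00359). At 6 months its FPKM was 1.69, 1.83 and 3.66 in control and 1.05, 0.57 and 2.81 in DKO, which overlapped (log2 -0.51 ± 0.36; adjusted p = 0.288). The difference of the genotype effect between the ages was -1.89 ± 0.46 (adjusted p = 0.00882). Rpl39 itself, a small protein of the exit tunnel, was at 826, 692 and 904 FPKM in the P36 controls and 952, 1080.1 and 937 in the P36 DKO. It was the member with the next smallest p at P36 (log2 0.30 ± 0.14; adjusted p = 0.168), and Rpl39l took 0.066 to 0.607% of the summed FPKM of the pair in the 12 libraries. Rpl3l, the muscle paralog of Rpl3 and not a member, was listed at 0, 0 and 0.08 FPKM in the P36 controls and 1.83, 1.18 and 0.62 in the P36 DKO. The 15 skeletal muscle markers summed to 16.6 to 34.9 FPKM in the P36 controls and 156 to 684 in the P36 DKO, and their part in these 2 values was not tested.

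Of the other members with small p at P36, Rps21, Rpl29 and Rps6 had lower means in DKO but did not pass the test. Rps6, the substrate of the S6 kinases, was at 1030 ± 96.6 FPKM in control and 888 ± 34.8 in DKO (SD, n = 3; log2 -0.21 ± 0.12; adjusted p = 0.262). Rpl29 was at 1099 ± 80.6 and 951 ± 39.4 (adjusted p = 0.255), and Rps21 at 1154 ± 171 and 949 ± 108 (adjusted p = 0.241).

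At 6 months most members were higher in DKO. Of 85 members, 63 were called higher and 0 lower, against 23.2% of all 12594 genes tested called higher and 18.2% called lower. At an unadjusted p under 0.05 limma gave 70 higher and 0 lower, and a fit without a trended prior gave 62 higher. The fitted difference was above 0 for 80 members and below for 5. The median log2 difference was 0.59, a fold of 1.5, with quartiles of 0.42 and 0.67, while the median of all genes was 0.04. All 3 DKO libraries lay above all 3 controls for 73 members and below for 0, and 12 overlapped, against 31.8% and 24% of all genes. Of the large subunit genes 39 of 53 were called higher, and of the small subunit genes 24 of 32, with medians of 0.59 and 0.58. Scaling every library to one summed FPKM moved the median of all genes by -0.14, and 58 members were then called higher. Leaving keratin and cornified envelope genes out of the totals moved that median by -0.17, with 55 members called higher. Such scaling multiplies a whole library by 1 factor and shifts all genes alike. The distance of the members from the median of all genes could therefore hardly change (0.54 as deposited, then 0.53 and 0.52). The share of higher genes among all calls was 56% as deposited, 39.9% with every library scaled to one total and 36.3% without keratins in the totals.

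Quantile normalization gave fewer calls, 34 higher and 1 lower, with a median of 0.24. Of all genes 22.2% were then called higher and 20.4% lower, with a median of 0.04. With each library centred on the members, so that each member is set against the others, 14 were called higher and 9 lower. Such centring puts the members near 0, and 5.31% of all genes were then called higher and 45.4% lower.

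**Figure D2:**
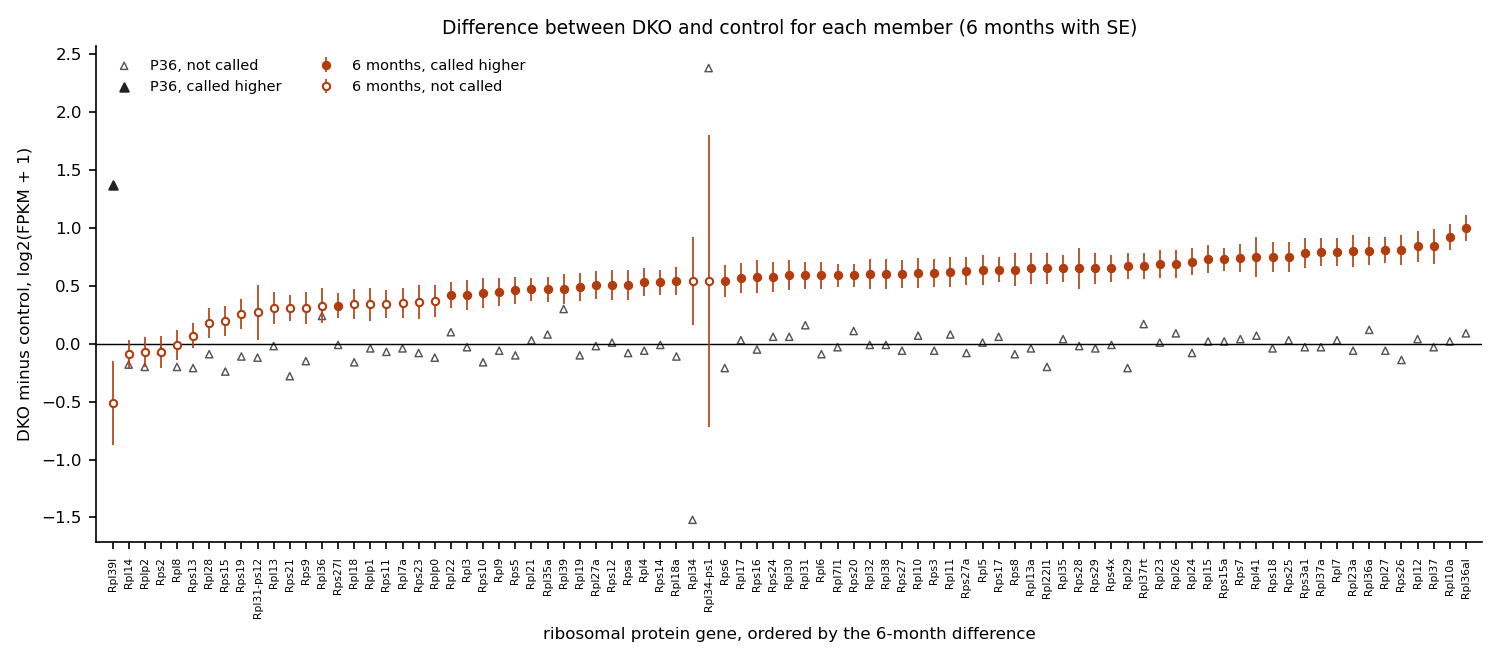
Difference between DKO and control on log2(FPKM + 1) for each of the 85 members, ordered by the 6-month value (circles with SE, filled where called), with the P36 difference as triangles (filled where called). The 6-month values have quartiles of 0.42 and 0.67 and the P36 values of -0.09 and 0.03, with Rpl39l, Rpl34 and Rpl34-ps1 farthest from 0 at P36.

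Rpl36al, the paralog of Rpl36a, had the largest difference among the called members. Its FPKM was 228, 249.7 and 252 in the 6-month controls and 478, 549.7 and 439 in the 6-month DKO. The lowest DKO value, 439, was well above the highest control value (log2 1.00 ± 0.11; adjusted p = 0.000996). At P36 it was 394, 382 and 535 in control and 452, 459 and 471 in DKO. Rpl10a, a large subunit protein enriched on a subset of ribosomes, had FPKM values of 764, 792 and 877 in the 6-month controls and 1563, 1613 and 1425 in the 6-month DKO (log2 0.92 ± 0.11; adjusted p = 0.00129). At P36 it was at 1303, 1123 and 1319 in control and 1319.7, 1321 and 1146 in DKO, which overlapped. Rps26, a small subunit protein at the mRNA exit channel, was at 1466, 1611 and 1822 FPKM in the 6-month controls and 2812, 2875 and 2846 in the DKO (log2 0.81 ± 0.13; adjusted p = 0.00284). These DKO values were the highest of the 4 groups, and P36 values ran from 1659.5 to 2053 in both genotypes.

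Rpl12, which lies at the base of the ribosomal stalk, was at 1399 ± 142 FPKM in the 6-month controls and 2509 ± 207 in the DKO (log2 0.84 ± 0.13; adjusted p = 0.0028). Rpl27 rose from 374 ± 15.2 to 658 ± 64.6 FPKM (log2 0.81 ± 0.11; adjusted p = 0.00165). Rpl23a, near the exit of the nascent chain, rose from 1990 ± 159 to 3481 ± 456 (log2 0.80 ± 0.14; adjusted p = 0.00473), and Rpl36a from 700 ± 67.1 to 1222 ± 119 (log2 0.80 ± 0.12; adjusted p = 0.00283). Rpl37, described below with its copy, completed the 8 largest. The most abundant members after the stalk protein Rplp1 were Rpl41 and Rpl23a, at 2894 and 2632 FPKM over all 12 libraries, and Rpl41 rose from 1726 ± 359 to 2864 ± 48.6 FPKM (log2 0.75 ± 0.17; adjusted p = 0.0129). The least abundant after Rpl39l were Rpl7l1 at 48 and Rps15a at 84 FPKM, and both rose, by 0.59 ± 0.10 and 0.73 ± 0.10 (adjusted p = 0.00382 and 0.0016).

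Members of the acidic stalk, which recruits translation factors, did not pass the test. Rplp0, the stalk's base, was at 1350, 1640 and 1742 FPKM in the 6-month controls and 2093, 2121 and 1890 in the DKO, without overlap (log2 0.37 ± 0.14; adjusted p = 0.0648). Rplp1, the most abundant member at 3052 FPKM over all libraries, was at 1750, 2126 and 2253 in control and 2510, 2734 and 2457 in DKO (log2 0.34 ± 0.14; adjusted p = 0.0913). Its partner Rplp2 was at 652, 762 and 881 in control and 745, 726 and 699 in DKO, which overlapped (log2 -0.07 ± 0.13; adjusted p = 0.694). Rpsa, the small subunit protein also known as the laminin receptor precursor, rose from 848 ± 102 to 1208 ± 84.9 FPKM (log2 0.51 ± 0.13; adjusted p = 0.0168).

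A further group of members stood near 0 at 6 months, singled out after their values were seen. Rpl14 was at 485, 534 and 617 FPKM in control and 504, 519 and 509 in DKO (log2 -0.09 ± 0.12; adjusted p = 0.572). Rps2, at the mRNA entry site, was at 1325, 1641 and 1779 in control and 1397, 1548 and 1556 in DKO (log2 -0.07 ± 0.14; adjusted p = 0.73). In both, the DKO values fell within the range of the controls. Rpl8, near the peptidyl transferase centre, differed by -0.01 ± 0.13 and Rps13 by 0.07 ± 0.11 (adjusted p = 0.948 and 0.615). With each library centred on the members, Rps13 was called lower, at -0.42. The difference between Rpl36al and Rpl14 in their response was not tested by itself.

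**Figure D3:**
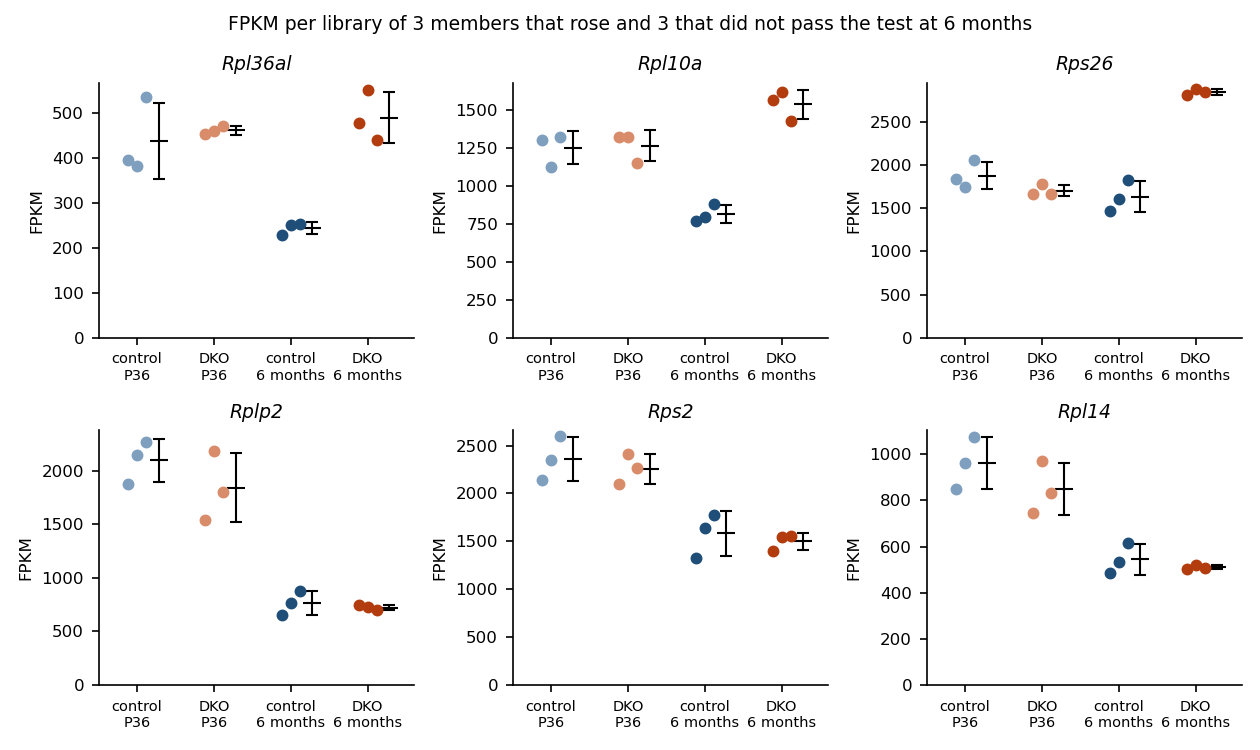
FPKM of 6 members in each library (points), with group mean and SD (bar). Rpl36al, Rpl10a and Rps26 are higher in all 3 DKO libraries at 6 months, while Rplp2, Rps2 and Rpl14 overlap between the genotypes at 6 months and are lower than at P36 in both.

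Promoter windows are shown for 5 members with the largest and 5 with the smallest 6-month differences among those with a window and a mean above 50 FPKM, to set their annotated starts side by side. RefSeq windows of GRCm38.p6 were matched for 64 of 85 members, and each line gives 30 bases before and 20 bases from the annotated start. Capitals mark a C opening a run of at least 8 pyrimidines on the sense strand within these 50 bases.
Rpl36al, chr12:69184048-69184097, minus strand: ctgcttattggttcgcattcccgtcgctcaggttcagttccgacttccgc
Rpl10a, chr17:28328441-28328490, plus strand: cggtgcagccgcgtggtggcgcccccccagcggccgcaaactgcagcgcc
Rpl12, chr2:32961682-32961731, plus strand: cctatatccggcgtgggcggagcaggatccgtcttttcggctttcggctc
Rpl37, chr15:5116583-5116632, plus strand: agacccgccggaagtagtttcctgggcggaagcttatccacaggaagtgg
Rpl27, chr11:101442215-101442264, plus strand: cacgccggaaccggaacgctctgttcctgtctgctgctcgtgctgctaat
Rpl28, chr7:4792935-4792984, plus strand: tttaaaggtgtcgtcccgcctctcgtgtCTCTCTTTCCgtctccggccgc
Rps13, chr7:116334171-116334220, minus strand: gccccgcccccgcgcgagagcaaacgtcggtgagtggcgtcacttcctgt
Rplp2, chr7:141447621-141447670, plus strand: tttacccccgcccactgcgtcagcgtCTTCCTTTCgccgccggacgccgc
Rps2, chr17:24720033-24720082, plus strand: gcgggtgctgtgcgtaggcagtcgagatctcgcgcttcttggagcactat
Rpl14, chr9:120571487-120571536, plus strand: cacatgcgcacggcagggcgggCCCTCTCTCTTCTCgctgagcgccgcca
The run was present in 0 of the first 5 and 3 of the last 5, windows that were picked by their 6-month values. Over all members with a window it was present in 30 of 64 (46.9%), against 15.9% of the 10010 other genes tested at 6 months that had a window. Among members called higher at 6 months 21 of 47 had it (44.7%), and among those not called 9 of 17 (52.9%). The ETS core CCGGAA, searched on both strands of the full 300-base window, was in 32 of 64 members (50%) and in 27.8% of other genes. It was in 26 of 47 members called higher (55.3%) and 6 of 17 not called (35.3%). The E-box CACGTG, bound by Myc among others, was in 5 of 64 members (7.81%) and 10.1% of other genes. The TATA box letters TATAAA were in 7 of 64 (10.9%) and 7.38%. A pair of AGGTCA copies 3 bases apart, the letters of a repeat that the vitamin D receptor is known to bind, was in 0 of 64 and 0 of 10010. A missing match says only that these letters are not in the window, and annotated starts can lie some bases from the true ones.

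Near-identical copies made the values of some members uncertain one by one. In the longest transcript of each, 83 of 85 members shared at least 1 stretch of 50 bases, the read length, with another GENCODE gene. In 31 of them 50% or more of the stretches were shared. Of these 31, 24 were called higher at 6 months, against 74.1% of all 85 members and 23.2% of all genes tested. Use of the longest transcript can understate the sharing. For Rpl34 the share was 6.93%, while 71.5% of the stretches of its coding sequence were also in Rpl34-ps1. Genes annotated at the place of a member were not left out. Rpl34-ps1, Rpl31-ps12 and Rpl37rt are protein-coding in RefSeq, while GENCODE vM21 lists their transcripts as pseudogenes or noncoding. The coding sequence of Rpl34 has 354 bases, of which 352 are identical in Rpl34-ps1. The substitutions, counted from the A of the start codon, are T132C and C318G, shown in capitals with 20 bases on each side, because only reads over them tell the coding sequences apart.
Rpl34, T132C: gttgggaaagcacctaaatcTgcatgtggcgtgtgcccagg
Rpl34-ps1, T132C: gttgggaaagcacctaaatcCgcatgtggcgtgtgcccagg
Rpl34, C318G: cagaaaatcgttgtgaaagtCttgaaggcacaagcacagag
Rpl34-ps1, C318G: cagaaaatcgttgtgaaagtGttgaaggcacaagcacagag
Rpl37 and Rpl37rt differ at 1 of 294 coding bases, G249A.
Rpl37, G249A: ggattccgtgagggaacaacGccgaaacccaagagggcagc
Rpl37rt, G249A: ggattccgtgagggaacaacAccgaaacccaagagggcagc

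Rpl34-ps1 took 0.873, 0.796 and 51.8% of the summed FPKM of the pair in the P36 controls and 50.8, 1.08 and 96.4% in the P36 DKO. At 6 months it took 54.2, 4.2 and 56.8% in control and 53.2, 4.87 and 54.4% in DKO. The share thus varied between libraries of the same group as much as between groups, and in all 4 groups the library numbered 2 had a share under 5%. The sum of the pair varied less within groups, at 1029, 937 and 1173 FPKM in the P36 controls and 1065, 1063 and 1111 in the P36 DKO. At 6 months the sum was 586, 580 and 655 in control and 855, 887 and 849 in DKO, which did not overlap. Neither gene passed the test alone (log2 0.54 ± 0.38 for Rpl34 and 0.54 ± 1.26 for Rpl34-ps1; adjusted p = 0.287 and 0.753), and the P36 differences of -1.52 for Rpl34 and 2.38 for Rpl34-ps1 did not pass either.

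Rpl37 and Rpl37rt both rose at 6 months. Rpl37 was at 148, 148 and 176 FPKM in control and 258, 343 and 249 in DKO (log2 0.84 ± 0.15; adjusted p = 0.00469), and Rpl37rt at 325, 311 and 367 in control and 509, 561 and 519 in DKO (log2 0.67 ± 0.11; adjusted p = 0.00301). The copy's share of the pair was 17.9 ± 2.39% in the P36 controls and 68 ± 0.633% in the 6-month controls, and 20.2 ± 4.12% and 65.3 ± 2.91% in the DKO (SD, n = 3). At each age the shares of the genotypes overlapped, and those of 6 months lay above all of P36. The values of the 2 ages come from 2 separate deposited tables, and age and table cannot be told apart. Rpl31-ps12 (120 ± 16.1 FPKM in control and 150 ± 50.9 in DKO at 6 months) did not pass the test (log2 0.27 ± 0.24; adjusted p = 0.409). Its parent Rpl31 rose (log2 0.59 ± 0.12; adjusted p = 0.00853).

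**Figure D4:**
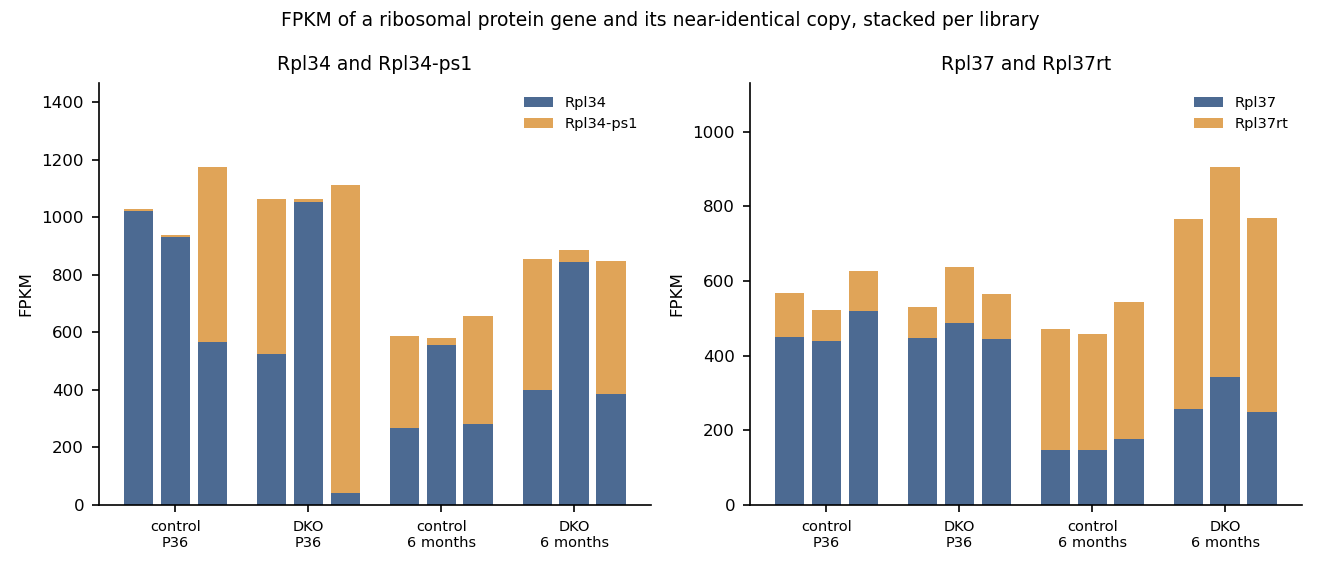
FPKM of Rpl34 and Rpl37 (lower part of each bar) and of their copies Rpl34-ps1 and Rpl37rt (upper part) in the 12 libraries, with the 3 libraries of a group side by side in the order 1, 2, 3. The parts of the Rpl34 pair trade places between libraries while the height of the bars follows the group, and the copy takes most of the Rpl37 pair at 6 months only.

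The true paralogs were less alike in sequence and had values of their own. Of the coding bases of Rpl22 67.7% were identical in Rpl22l1, of those of Rps27 76.1% in Rps27l, of Rpl36a 87.9% in Rpl36al, of Rpl39 85.3% in Rpl39l and of Rpl7 55.4% in Rpl7l1, and none of these pairs shares a stretch of 50 coding bases. Rpl22l1, the paralog that Rpl22 is known to restrain, was at 281, 249.2 and 359 FPKM in the P36 controls and 281, 262 and 225 in the P36 DKO. At 6 months it was at 52.9, 61.9 and 67.3 in control and 85.9, 110.5 and 91.7 in DKO (log2 0.65 ± 0.13; adjusted p = 0.00822). It was lower at 6 months than at P36 in both genotypes (log2 -2.26 ± 0.15 in control, adjusted p = 2.09e-07, and -1.41 ± 0.15 in DKO, adjusted p = 1.83e-05). Rpl22 did not pass the test with age in control (log2 -0.06 ± 0.10; adjusted p = 0.604). The paralog's share of the pair was 60.1 ± 2.89% in the P36 controls and 24.6 ± 1.6% in the 6-month controls, and 55 ± 3.47% and 27.7 ± 1.44% in the DKO.

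Rpl22 rose in the 6-month DKO by 0.42 ± 0.11 (adjusted p = 0.0228), Rps27 by 0.60 ± 0.12 (adjusted p = 0.00726) and Rps27l by 0.33 ± 0.11 (adjusted p = 0.0497), the last having the largest p of the 63 calls. The sign of Rps27l turned with GC and length bins removed (-0.21) and with each library centred on the members (-0.16), and centring also turned Rpl22 (-0.07). Rpl7 rose by 0.79 ± 0.12 (adjusted p = 0.00242). The shares of Rps27l, Rpl36al and Rpl7l1 in their pairs were lower at 6 months than at P36 in both genotypes, for example 35.9 ± 1.01% for Rpl36al in the P36 controls and 25.8 ± 1.36% in the 6-month controls.

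Members known from phenotypes were mostly called. Of 8 genes whose mutations are known to alter skin, hair or pigment, 7 were called higher at 6 months with a median of 0.55, and 0 at P36 (0 also at an unadjusted p under 0.05 in limma). Rps20 rose from 131 ± 11.5 to 197 ± 10.1 FPKM (adjusted p = 0.00405), Rps7 from 1022 ± 69.6 to 1714 ± 127 (adjusted p = 0.00283), Rpl24 from 645 ± 73.3 to 1051 ± 57.4 (adjusted p = 0.00394) and Rpl38 from 712 ± 107 to 1073 ± 44 (adjusted p = 0.0105). Rps19, the first gene found mutated in Diamond-Blackfan anaemia and 1 of the pigment genes, did not pass, at 575, 612 and 716 FPKM in control and 766, 822 and 689 in DKO (log2 0.26 ± 0.13; adjusted p = 0.138). Of 12 genes of Diamond-Blackfan anaemia, an inherited failure of red cell production, 11 were called higher, all but Rps19. All 8 genes of the 5S particle and of Mdm2 binding were called higher, among them Rpl5 (528 ± 51.5 to 821 ± 87.8 FPKM; adjusted p = 0.00701) and Rpl11 (966 ± 138 to 1476 ± 72.6; adjusted p = 0.0103), which carry 5S RNA. The 3 lists overlap, and 74.1% of all members were called.

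Ribosomal proteins whose symbols lie outside the rule were looked at as well. Rack1, a scaffold on the small subunit, rose from 655 ± 77.3 to 1082 ± 63 FPKM (log2 0.73 ± 0.12; adjusted p = 0.00399). Fau, a fusion of eS30, differed by 0.22 ± 0.13 (adjusted p = 0.209).

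Between the ages, most members were lower at 6 months in control, and they were divided in DKO. The values of the 2 ages come from 2 separate deposited tables, so age and table cannot be told apart here. From P36 to 6 months 66 members were called lower and 3 higher in control, with a median of -0.59, against 27.9% of all genes called lower and 35.3% higher and a median of 0.10. In DKO 23 were called lower and 24 higher, with a median of -0.02, against 32% of all genes lower and 28% higher. The 3 members called higher in control were Rps24 (1031 ± 189 to 1536 ± 127 FPKM; log2 0.59 ± 0.14; adjusted p = 0.00257), Rpl21 (367 ± 56.3 to 509 ± 30.2; log2 0.48 ± 0.11; adjusted p = 0.0025) and the copy Rpl37rt (log2 1.70 ± 0.19; adjusted p = 1.11e-05). Rpl22l1 and Rplp2 were among those that fell in both genotypes, Rplp2 by 1.46 in control and 1.33 in DKO on the log2 scale (adjusted p = 4.84e-06 and 2.04e-05). Of all genes called with age in control 55.8% were higher, and 68.1% with every library scaled to one total. With quantile normalization 36 members were called lower and 13 higher in control, with a median of -0.20. Of all genes 29.8% were then called lower and 33.3% higher. Centred on the members, which puts their median near 0 by construction, the control comparison gave 27 higher and 23 lower. Of all genes 63.9% were then called higher and 9.26% lower.

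The difference of the genotype effect between the ages, 6 months minus P36, was called for 60 members, 59 of them above 0 and 1, Rpl39l, below, against 13.8% and 21.1% of all 13280 genes tested. The median difference was 0.60 over the members and -0.08 over all genes. The smallest p belonged to Rpl29, at 655, 694 and 743 FPKM in the 6-month controls and 1102, 1216 and 1027 in the DKO, against 1067, 1039.7 and 1191 and 952, 990 and 911 at P36. Its DKO values were above control at 6 months and below at P36 (difference 0.88 ± 0.14; adjusted p = 0.000978). Rps26 followed with 0.94 ± 0.15 (adjusted p = 0.00106), Rpl27 with 0.88 ± 0.15 (adjusted p = 0.0012), Rpl10a with 0.90 ± 0.15 (adjusted p = 0.00132), Rpl7 with 0.76 ± 0.15 (adjusted p = 0.00285), Rps15a with 0.71 ± 0.14 (adjusted p = 0.00291), Rps7 with 0.70 ± 0.14 (adjusted p = 0.0033) and Rpl23a with 0.87 ± 0.17 (adjusted p = 0.00334). Among all calls in this comparison 39.5% were above 0, a share of 52.6% with median-ratio scaling, 24.3% with one total, 28% without keratins in the totals, 54.8% with quantile normalization and 51.2% with GC and length bins removed. With quantile normalization 20 members were called above 0 and 2 below, against 20.8% and 17.2% of all genes. The medians were then 0.18 over the members and 0.07 over all genes. The age comparisons and this one use the same libraries as the genotype comparisons and are not independent of them. In this one too, age and table cannot be told apart.

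Genes that build or use the ribosome were also called higher more often than lower at 6 months. Over all genes tested, 23.2% were called higher and 18.2% lower at 6 months, and 18% and 5.32% at P36. Of 50 ribosome biogenesis genes 28 were called higher and 1 lower, with a median of 0.45. Dkc1, the pseudouridine synthase of H/ACA particles, rose from 12.9 to 26.5 FPKM (log2 0.98; adjusted p = 0.000507), Wdr12 of the PeBoW complex from 4.33 to 10.5 (log2 1.11; adjusted p = 0.000528), Utp14a from 18.2 to 33.9 (adjusted p = 0.000756) and Nop10 from 42 to 88.5 (adjusted p = 0.00134). At P36 this list had 0 higher (1 at an unadjusted p under 0.05 in limma) and 2 lower, Bop1 (log2 -0.31; adjusted p = 0.0245) and Wdr12 (-0.46; adjusted p = 0.0301). Of 19 measured RNA polymerase I genes 9 were higher and 1 lower at 6 months (median 0.34), led by Polr1e (2.59 to 5.53 FPKM; adjusted p = 0.00184), and 0 were called at P36, also at an unadjusted p under 0.05 in limma.

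The next counts stand beside the same shares over all genes, 23.2% higher and 18.2% lower at 6 months and 18% and 5.32% at P36. Initiation factors gave 17 higher and 2 lower of 37, with a median of 0.36. Eif2s1, the alpha subunit of eIF2, rose from 24.3 to 50.6 FPKM (adjusted p = 0.000625) and the cap binder Eif4e from 19.5 to 35.3 (adjusted p = 0.00179). At P36 0 were higher (3 at an unadjusted p under 0.05 in limma) and 5 lower, such as Eif2b4 (-0.48; adjusted p = 0.00433). Elongation factors gave 4 higher and 1 lower of 11, and the one that fell was Eef2k, the kinase that inhibits eEF2, from 29.5 to 14.2 FPKM (log2 -1.01; adjusted p = 0.000785). Of 19 other mRNAs with TOP tracts 9 rose and 0 fell (median 0.30), among them Npm1 (326 to 567 FPKM; adjusted p = 0.00223) and Btf3 (410 to 665; adjusted p = 0.00246). Of 26 genes of mTOR and TOP control 10 rose and 3 fell (median 0.11), including Rps6kb1, the S6 kinase (13.6 to 19.7 FPKM; adjusted p = 0.00419). Zfas1, the only 1 of 15 snoRNA host genes on the list that was tested, rose from 23.1 to 49 FPKM (adjusted p = 0.00287).

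The calls in the Myc and p53 lists are given beside the 23.2% of all genes called higher and 18.2% called lower at 6 months. In the Myc network 1 of 11 rose and 4 fell (median -0.32), and Mycl fell at both ages (-1.27 at P36, adjusted p = 0.000226, and -1.36 at 6 months, adjusted p = 0.00261). Of 20 p53 genes 4 rose and 2 fell (median -0.01), which is near the share over all genes, with the pro-apoptotic Pmaip1 among those that rose (4.74 to 14.1 FPKM; adjusted p = 0.00116).

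**Figure D5:**
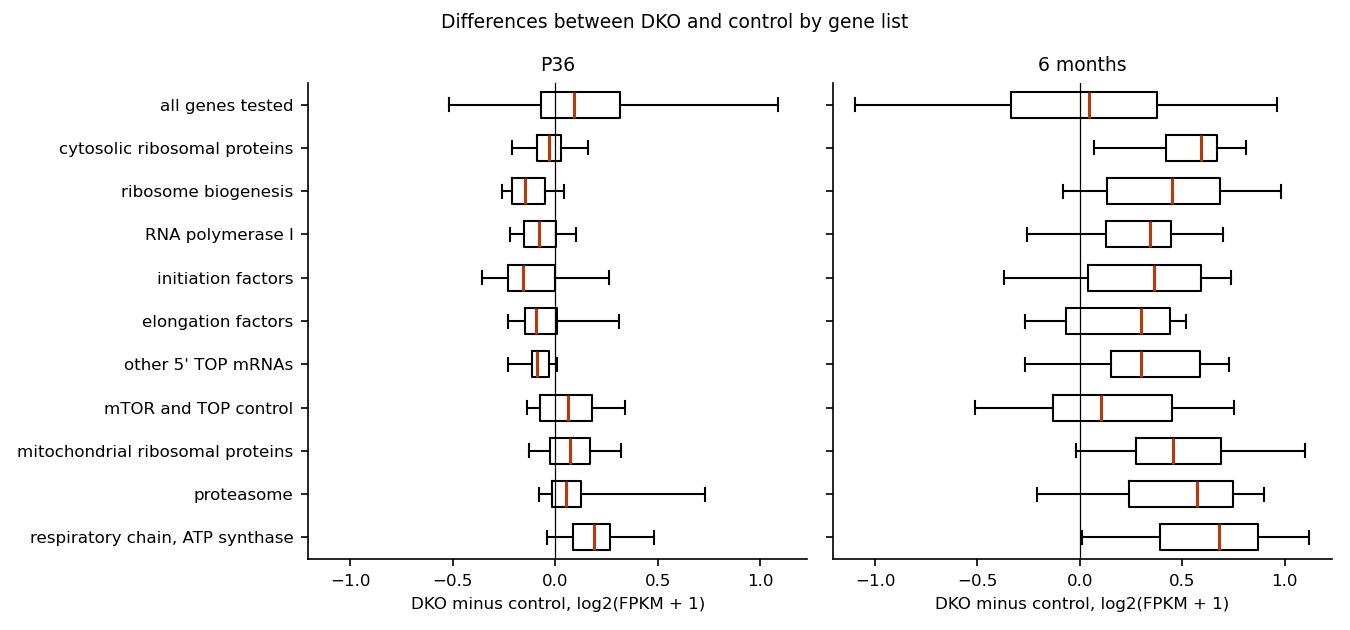
Distribution of the log2(FPKM + 1) difference between DKO and control for all genes tested, the 85 members and other gene lists, at P36 (left) and 6 months (right). Boxes span the quartiles with the median as a line inside, and whiskers reach the 5th and 95th percentiles, and the members' box lies near 0 at P36 and around 0.59 at 6 months.

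Most genes of other large housekeeping complexes were also called higher, against 23.2% of all genes called higher and 18.2% lower at 6 months. Of 78 mitochondrial ribosomal protein genes 50 were called higher and 2 lower at 6 months (median 0.46), of 38 proteasome genes 26 and 0 (median 0.57), and of 89 respiratory chain and ATP synthase genes 67 and 1 (median 0.68). Among other genes with a mean of 100 FPKM or more, 40.8% were called higher and the median was 0.22.

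At 6 months the difference also moved with base composition. Among other genes, those with a transcript GC content below 49.6% had a median of 0.25 and 35.9% called higher, and those above 53.5% a median of -0.21 and 10.2%. The members kept positive medians in each class, 0.60 for the 28 of low GC (89.3% called higher), 0.59 for the 28 between (78.6%) and 0.49 for the 29 of high GC (55.2%). Other genes with a mean of 100 FPKM or more came closer to the members at low GC, with a median of 0.50 and 60.6% called higher. Their medians were 0.24 between (42%) and -0.03 at high GC (27.2%). With the deviations of GC and length bins of the other genes removed, an alternative chosen after seeing the data, 52 members were called higher and 0 lower, with a median of 0.40. At P36 the medians of other genes in the 3 GC classes were 0.11, 0.10 and 0.08.

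Markers of cell types differed between the groups in part, where 23.2% of all genes were called higher and 18.2% lower at 6 months. At 6 months 9 of 13 basal keratinocyte markers tested were called lower and 1 higher in DKO, with a summed FPKM of 6534 to 8026 in control and 4065 to 4892 in DKO. Immediate early genes gave 13 of 18 lower and 0 higher, with Fos at 411 ± 287 FPKM in control and 29.6 ± 4.33 in DKO (log2 -3.53; adjusted p = 0.00131). Without the control library numbered 1, which had the highest immediate early sum, 58 members were called higher and 0 lower. Of all genes 21.5% were then called higher and 16.9% lower. The remaining 6-month controls still summed to 2162 and 2485 FPKM of immediate early genes, against 805 to 1008 in DKO. This fit therefore does not separate the members' difference from that of the immediate early genes. Hair shaft and inner root sheath markers were near 0 at 6 months in both genotypes (4.32 to 34.7 FPKM summed) and at 30996 to 33622 in the P36 controls and 12272 to 16794 in the P36 DKO. Suprabasal markers went both ways, with 5 of 16 called higher and 7 lower, and summed to 24719 to 34695 FPKM in the 6-month controls and 17585 to 22124 in the DKO. Of 14 sebaceous gland markers 8 were called higher and 2 lower, with sums of 873 to 1350 in control and 1691 to 2080 in DKO. Of 14 macrophage, neutrophil and mast cell markers 3 were called higher and 1 lower, with sums of 107 to 168 and 329 to 733. Red blood cell markers gave 4 higher and 0 lower of 5 tested. Smooth muscle and endothelium markers gave 0 and 5 of 14, and Langerhans cell and antigen presentation markers 1 and 4 of 11. Melanocyte markers gave 0 and 3 of 8, and dermal fibroblast markers 0 and 2 of 14. Adipocyte markers gave 0 and 1 of 9, T cell markers 0 and 1 of 6, and skeletal muscle markers 0 and 0 of 8. Of 30 cell cycle genes 6 were called higher and 0 lower (8 and 0 at an unadjusted p under 0.05 in limma), against 23.2% of all genes higher, and their sums of 246 to 391 in control and 358 to 418 in DKO overlapped. The part of these markers in the members' values was not tested.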

How the data were processed

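Total RNA of epidermis was measured in 12 libraries. Values are FPKM per gene and library as deposited by the authors in 1 table per age. HISAT2 2.1.0 and RSEM 1.2.8 are named in the submitters' processing notes, which also name human builds, so gene coordinates are printed only for RefSeq promoter windows (GRCm38.p6). Entrez numbers were matched to symbols for 17712 of 17750 genes at 6 months and 19343 of 19392 at P36. No counts were used, so the depth and the counting error are unknown. No source used here says how reads shared between copies were assigned.

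Genes with 1 FPKM or more in at least 3 libraries of a fit were tested with limma 3.58.1 (R 4.3.3, trended prior) on log2(FPKM + 1) with Benjamini-Hochberg adjustment over all genes. Each age was fitted on its 6 libraries, and the age comparisons and the difference on all 12 with 4 group means. Transcript length, GC content and shared 50-base stretches came from GENCODE vM21 (85 of 85 members had values). Coding sequences of pairs were open reading frames aligned with Biopython. Members and lists were chosen with earlier results of these data known. Named were the targeted genes, up to 8 called members per direction with the largest difference, those with the smallest p, paralogs, stalk proteins and Rpsa, the 3 highest and lowest by level, called members of phenotype lists, and up to 4 genes per other list. Members singled out near 0 were chosen after their values were seen. Alternatives were another pseudocount (0.1), no filter, a filter at 5 FPKM, 5 other scalings, a fit without trend, 1 fit of all libraries, a replicate block and leaving out each library. Removal of GC and length bins, and centring on the members for counts, were added after seeing the data. One gene of the list of ribosomal proteins outside the symbol rule is not reported here.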

Additional observations from a re-analysis of the deposited data

Results flagged for a closer look

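The effect of the genotype on the members differed between the ages by a test of the difference itself. It was called for 60 of 85 members (limma, adjusted p under 0.05), 59 of them above 0 and 1 below. Of all 13280 genes tested, 13.8% were called above 0 and 21.1% below. On the log2 scale, as 6 months minus P36, the difference was 0.88 for Rpl29, 0.94 for Rps26, 0.88 for Rpl27, 0.90 for Rpl10a, 0.76 for Rpl7, 0.71 for Rps15a, 0.70 for Rps7 and 0.87 for Rpl23a. Rpl39l went the other way, at -1.89, and is a gene of 0.57 to 5.47 FPKM. With quantile normalization the count was 22, with 20 above 0 and 2 below, against 20.8% and 17.2% of all genes. Groups of 3 libraries are too small for a search for single outlying libraries.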

How the results depend on the processing

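The deposited FPKM keep no read depth, 3 libraries a group limit the precision, and the scaling sets the level against which the members are read. At P36 the count of called members was 0 with a filter at 5 FPKM, which removes Rpl39l, 2 with quantile normalization, 2 with GC and length bins removed and 2 centred on the members, and the median was -0.15 with median-ratio scaling and -0.17 with GC and length bins removed. With quantile normalization the P36 median was 0.05, 0.10 above that of all genes instead of below it, and 52 members lay above 0 instead of 31. At 6 months the count was 35 with quantile normalization, with 22.2% of all genes called higher and 20.4% lower. Centred on the members it was 23, with 5.31% of all genes called higher and 45.4% lower. The 6-month median was 0.43 with every library scaled to one total, 0.40 without keratin and cornified envelope genes in the totals, 0.24 with quantile normalization and 0.40 with GC and length bins removed. The difference between ages gave 22 calls with quantile normalization, with 20.8% of all genes called above 0 and 17.2% below. It gave 11 calls centred on the members, with 2.33% of all genes called above 0 and 48.9% below. For the change with age in control, centring gave 50 calls and turned the majority, with 27 higher and 23 lower. Centring subtracts the members' own median from each library, so their median moved from -0.59 to 0.01 by construction. These calls set each member against the others and do not bear on the level of the members together. Leaving out 1 library at a time gave 47 to 69 calls at 6 months (medians 0.52 to 0.65) and 44 to 66 in the difference between ages. The P36 call remained in each such fit (medians -0.08 to 0.03), and there were 59 to 70 calls for age in control and 41 to 51 for age in DKO.

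Changes of sign are listed only for named results that were called as deposited or under the alternative. Centring on the members turned the sign of the 6-month value of Rpl22 (-0.07), Rps27l (-0.16), Rpl39 (-0.03), Rps19 (-0.23), Rpl21 (-0.02), Rps10 (-0.05), Rpl35a (-0.03), Rps13 (-0.42), Rpl28 (-0.31) and Rps15 (-0.29), and of the age change of Rpl22 in control (0.54). Of all 85 members, 80 lay above 0 at 6 months as deposited and 55 after centring. Removing GC and length bins turned Rps27l (-0.21) and Polr2k (-0.12). Of 3616 values of 192 named gene results under the alternatives, 3326 kept their side of the threshold, and their direction where called. Another 230 were no longer called and 47 were newly called, each with its sign kept. The other 13 turned in sign and were called as deposited or under the alternative. Values called in neither were not checked for their sign. A filter, the pseudocount, the trend and totals without the members moved no 6-month count by over 1.5 times.

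The replicate number as a block gave 61 calls at 6 months, 53 in the difference between ages and 1 at P36. The deviations of same-numbered libraries had an r of 0.13, -0.06 and -0.12 at P36 and of -0.06, 0.03 and 0.18 at 6 months, so the genes as a whole did not show a pairing by number. The share of Rpl34-ps1 was under 5% in the library numbered 2 of all 4 groups, and otherwise only in the P36 control numbered 1.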
